A study of Mus musculus with 12 samples.

Results

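The 10 genes described here encode glucose transporters and enzymes of glycolysis, and were taken by symbol from a fixed list (Slc2a1, Slc2a3, Hk1, Hk2, Pfkl, Pfkp, Aldoa, Pgk1, Pkm and Ldha) out of the 55401 genes in the count files. RNA-seq compared mouse totipotent potential stem (TPS) cells, which the labels describe as grown on feeder cells in VCED medium made with 4C basic medium, with extended pluripotent stem (EPS) cells, grown on feeder cells in LCDM medium. The study names the TPS condition CPEC, after its 4 small molecules: CD1530, which activates RARγ, VPA, which inhibits histone deacetylases, EPZ004777, which inhibits DOT1L, and an inhibitor of GSK3. Its TPS cells came from EPS cells, ES cells or 2-cell embryos, and which origin the sequenced lines had is not given in the sources used here. There were 3 lines of each cell type, each sequenced as 2 technical replicates, and the counts of a line's 2 libraries were summed. The medium and the cell type change together, so their parts cannot be told apart. The feeders that the study describes were mouse embryonic fibroblasts inactivated with mitomycin C, and their RNA could be in the samples.

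Glycolysis splits glucose into pyruvate in the cytosol and yields a small amount of ATP without oxygen. Transporters of the Slc2a family bring glucose in, hexokinase traps it as glucose 6-phosphate, phosphofructokinase commits it to breakdown, and the later enzymes recover ATP before lactate dehydrogenase turns pyruvate into lactate. Pluripotent stem cells in culture are known for high glycolytic activity, and many genes of the pathway are induced by the hypoxia factor HIF1 and by Myc, both of which can bind sites with an ACGTG core.

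Depth was similar in the groups, with 29877215 to 38466294 counts per TPS line and 33591638 to 35811697 per EPS line. The labelled cell types were checked against their markers. All 10 of the 2-cell markers found in the files had at most 3 counts in every EPS line, and their summed level was 309 to 422 CPM in TPS lines. Pluripotency markers summed to 3705 to 4179 CPM in TPS lines and 7041 to 9199 CPM in those of EPS cells. Of 18 fibroblast markers, 13 were higher in TPS lines and none was lower, against 14.4% and 7.34% of all tested genes. These calls are from the edgeR test described below. The summed level of the 18 was 3614 to 6503 CPM in TPS and 350 to 1438 CPM in EPS lines. Of the 18, Fap alone was at 0 in any line, in EPS line 1. Of 7 primitive endoderm markers, 4 were higher in TPS lines and none lower, against the same shares of all tested genes. They summed to 55.5 to 112 CPM in TPS lines and 18.4 to 30.5 CPM in EPS lines. Of 6 tested trophectoderm markers, 2 were higher and none lower, against 14.4% and 7.34% of all tested genes. All 7 listed summed to 144, 589 and 217 CPM in TPS lines 1 to 3, with TPS line 2 apart, and to 102.5 to 178 CPM in EPS lines. The part of RNA from such cells in the levels below was not tested. In bulk RNA, fewer cells of a type and less RNA per cell cannot be told apart.

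The 250 bases before the annotated start were searched for ACGTG on both strands, for CACGTG, which contains ACGTG on both strands, and for GGGCGG, the core of a Sp1-type GC box. Promoter sequences from RefSeq on GRCm38.p6 were matched for 9 of the 10 genes, with 14 windows in all, and Slc2a3 had no entry in the table used. Of these 14 windows, 7 held ACGTG, 1 held CACGTG (Ldha) and 8 held GGGCGG, and windows of 1 gene can overlap, as those of Aldoa do. Among all 32536 windows of this length, 16.7% held ACGTG, 6.04% held CACGTG and 33.0% held GGGCGG. The 3 genes with 2 or more ACGTG matches in a window are shown, since these act at the hexokinase, phosphoglycerate kinase and lactate dehydrogenase steps, and 6.84% of all windows had that many. A single CACGTG counts as 2 matches, so the 6.04% of windows with CACGTG are part of this 6.84%. The Hk2 and Pgk1 windows held no CACGTG, and the share of all windows with 2 separate sites was not counted. Each is written 5′ to 3′ on the strand of its gene, with ACGTG or its reverse complement CACGT in capitals. A match is a description of the letters and was not tested for binding.
Hk2, chr6:82774455-82774704, minus strand: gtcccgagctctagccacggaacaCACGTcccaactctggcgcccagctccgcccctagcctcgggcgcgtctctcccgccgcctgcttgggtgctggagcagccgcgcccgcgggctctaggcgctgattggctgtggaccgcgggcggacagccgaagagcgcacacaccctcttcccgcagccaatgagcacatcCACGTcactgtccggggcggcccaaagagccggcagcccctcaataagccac
Pgk1, chrX:106186850-106187099, plus strand: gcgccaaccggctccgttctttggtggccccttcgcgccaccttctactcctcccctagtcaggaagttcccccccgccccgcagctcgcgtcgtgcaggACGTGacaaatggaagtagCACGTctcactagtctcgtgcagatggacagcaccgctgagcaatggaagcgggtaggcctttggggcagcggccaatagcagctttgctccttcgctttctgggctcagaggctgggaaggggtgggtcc
Ldha, chr7:46845554-46845803, plus strand: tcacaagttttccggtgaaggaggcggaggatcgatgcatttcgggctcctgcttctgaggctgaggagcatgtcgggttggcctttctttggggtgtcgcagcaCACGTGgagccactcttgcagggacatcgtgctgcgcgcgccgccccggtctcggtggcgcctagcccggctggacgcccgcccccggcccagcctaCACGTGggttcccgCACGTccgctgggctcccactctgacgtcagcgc
The Ldha window had 5 overlapping or separate matches, of which 4 lay in 2 copies of CACGTG. The Hk2 and Pgk1 windows lie directly before the gene coordinates given below. The Ldha window lies within those of Ldha (chr7:46841475-46855627), so its RefSeq start is not the first annotated one. Overlap of the windows with annotated exons was not tested.

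All 10 genes were expressed in every line of both cell types. To compare genes, mean CPM was divided by the kilobases of annotated exon. On this scale the levels in TPS lines were 634 ± 50.3 CPM per kb (SD, n = 3) for Pkm, 567 ± 213 for Pgk1, 531 ± 147 for Aldoa and 506 ± 160 for Ldha, all in the same unit and with the same n. The spreads of these 4 enzymes of the lower pathway overlapped, but within each line Pkm was above Ldha in all 3 TPS and all 3 EPS lines. The transporters followed, with 287 ± 62.4 CPM per kb for Slc2a3 and 185 ± 110 for Slc2a1, and Slc2a3 was the higher in each line. Pfkl (49.9 ± 13.5) and Hk2 (49.5 ± 16.5) were next, with no fixed order between lines, and Pfkp (17.6 ± 6.70) and Hk1 (13.7 ± 3.17) were lowest, Pfkp being above Hk1 in each line. In EPS lines the order was Pgk1 (776 ± 211 CPM per kb, SD, n = 3), Pkm (760 ± 54.6), Aldoa (708 ± 183), Ldha (569 ± 145), Slc2a3 (387 ± 165), Slc2a1 (201 ± 164), Hk2 (77.4 ± 29.9), Pfkl (70.1 ± 18.9), Pfkp (30.3 ± 14.5) and Hk1 (16.4 ± 6.30). Pgk1 and Pkm, and Hk2 and Pfkl, thus stood in opposite order in the 2 cell types, by less than the spread between lines.

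**Figure D1:**
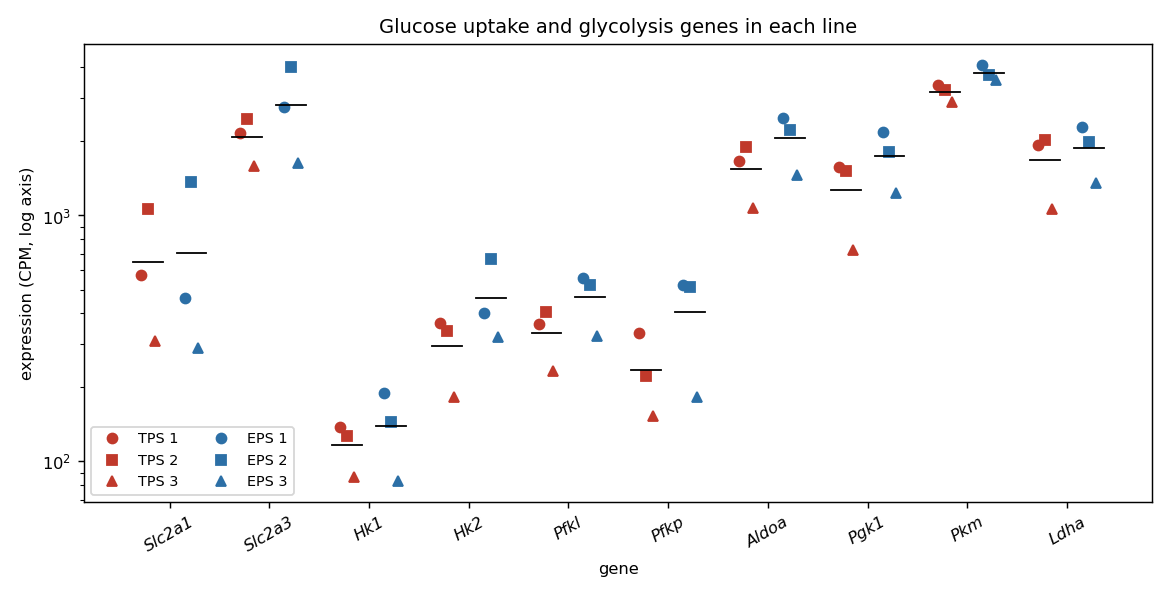
Expression of the 10 genes in CPM (log axis) for each TPS line (red) and EPS line (blue), with the group mean as a black bar. Pkm is the only gene whose TPS lines, 2893 to 3385 CPM, all lie below its EPS lines, 3565 to 4099 CPM, and line 3 (triangles) is the lowest of its group for every gene.

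Whether the pathway's genes differed between TPS and EPS cells was asked with edgeR's quasi-likelihood test on the 6 lines, with p-values adjusted over all 17468 tested genes. None of the 10 genes passed an adjusted p of 0.05 in either direction, where 21.7% of all tested genes did (14.4% higher and 7.34% lower in TPS lines). DESeq2's test on the same lines also called 0 of the 10, while it called 15.8% of its genes higher and 7.61% lower, and none had an unadjusted p under 0.05 by edgeR, against 37.0% of all tested genes. The fitted log2 fold change (TPS minus EPS) was below 0 for all 10 genes, with a median of -0.42, while 50.2% of all tested genes were below 0 and their median was -0.0038. The 1613 tested genes within the 10 genes' range of mean level had a median of -0.21, so part of the distance from all tested genes was shared by genes of like level. Without composition factors the median of all tested genes moved to 0.14 and Slc2a1 turned to 0.031, and all 10 genes were still below the median of all tested genes. The genes vary together between lines, as described below, so the 10 signs are not 10 independent observations.

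**Figure D2:**
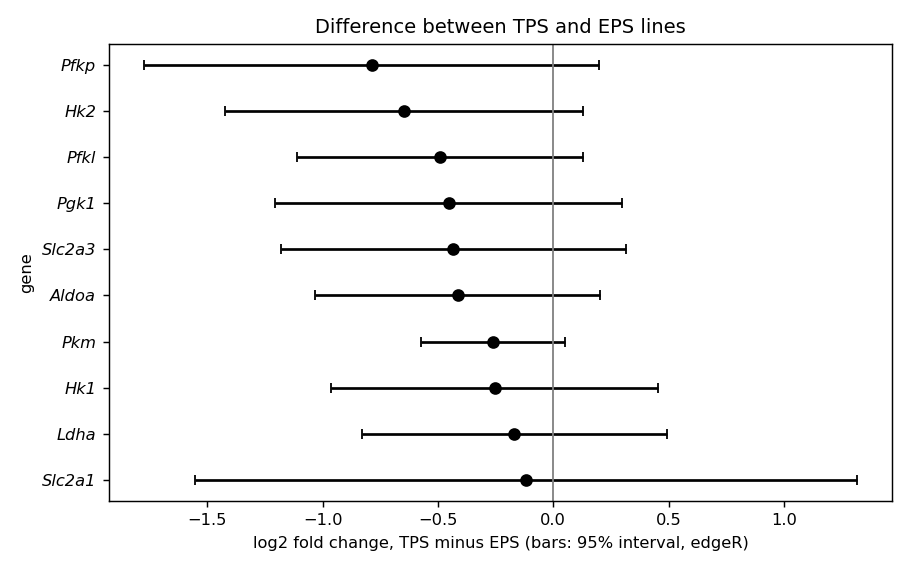
Log2 fold change of each gene between TPS and EPS lines (x axis, TPS minus EPS) with its 95% interval from edgeR. All 10 points lie below 0, from -0.79 for Pfkp to -0.12 for Slc2a1, and all 10 intervals include 0.

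Slc2a1 (ENSMUSG00000028645.11, chr4:119108711-119137983, plus strand, GRCm38) encodes the widely expressed glucose transporter GLUT1. It had 572, 1067 and 308 CPM in TPS lines 1 to 3 and 461, 1363 and 290 CPM in EPS lines 1 to 3. The groups overlapped fully, and the highest line was 3.46 times the lowest in TPS and 4.70 times in EPS lines, the widest spread of the 10 genes. Its log2 fold change was -0.12 with a 95% interval of -1.55 to 1.32, so a difference of more than 2-fold in either direction lies within the interval (edgeR adjusted p = 0.909). It was 0.77 without EPS line 2 and 0.21 without TPS line 3. Slc2a3 (ENSMUSG00000003153.10, chr6:122727809-122801640, minus strand) encodes GLUT3, a transporter with high affinity for glucose. Its levels were 2168, 2476 and 1586 CPM in TPS lines and 2755, 4025 and 1630 CPM in EPS lines. The EPS lines spanned the TPS lines at both ends but for TPS line 3, which was the lowest of the 6. The log2 fold change of Slc2a3 was -0.43 (95% interval -1.18 to 0.31, edgeR adjusted p = 0.369).

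Hk1 and Hk2 encode the hexokinases that perform the first step, Hk1 in most tissues and Hk2 in muscle, embryonic and tumour cells. Hk1 (ENSMUSG00000037012.18, chr10:62268855-62379908, minus strand) had 138, 127 and 86.5 CPM in TPS lines and 190, 145 and 83.2 CPM in EPS lines. The groups overlapped, with the lowest level of all in EPS line 3. Its log2 fold change was -0.25 (95% interval -0.96 to 0.46, edgeR adjusted p = 0.589) and 0.0097 without EPS line 1. Hk2 (ENSMUSG00000000628.10, chr6:82725025-82774454, minus strand; promoter window shown above) had 365, 338 and 182 CPM in TPS lines and 401, 663 and 321 CPM in EPS lines. EPS line 3 lay below TPS lines 1 and 2, and EPS lines 1 and 2 lay above all TPS lines. The log2 fold change was -0.65 (95% interval -1.42 to 0.13, edgeR adjusted p = 0.202).

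Pfkl and Pfkp encode the liver-type and platelet-type subunits of phosphofructokinase, which adds the second phosphate and is the main regulated step. Pfkl (ENSMUSG00000020277.10, chr10:77986947-78010083, minus strand) had 361, 406 and 233 CPM in TPS lines and 557, 523 and 324 CPM in EPS lines, and only EPS line 3 reached into the range of the TPS lines. Its log2 fold change was -0.49 (95% interval -1.11 to 0.13, edgeR adjusted p = 0.223). Pfkp (ENSMUSG00000021196.14, chr13:6579768-6648777, minus strand) had 331, 222 and 153 CPM in TPS lines and 524, 514 and 183 CPM in EPS lines. Here too EPS lines 1 and 2 lay above all TPS lines, while EPS line 3 lay below TPS lines 1 and 2. The log2 fold change of -0.79 was the most negative of the 10 (95% interval -1.77 to 0.20, edgeR adjusted p = 0.219). Without EPS line 3 it was -1.15 and Pfkp passed the test (edgeR adjusted p = 0.0440), in a fit in which 5.76% of all tested genes were lower in TPS lines. Pitrm1, on the opposite strand, overlaps Pfkp over 748 bases and had 45.3% as many counts, and whether counting used strand is not given in the sources used here.

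Aldoa, Pgk1 and Pkm encode aldolase A, which cleaves the six-carbon sugar, phosphoglycerate kinase 1, which makes the first ATP of the pathway, and pyruvate kinase M, which makes the last. Aldoa (ENSMUSG00000030695.16, chr7:126795234-126800751, minus strand) had 1661, 1904 and 1073 CPM in TPS lines and 2490, 2228 and 1466 CPM in EPS lines. EPS line 3 again lay among the TPS lines, and the log2 fold change was -0.41 (95% interval -1.03 to 0.20, edgeR adjusted p = 0.297). A second identifier with the symbol Aldoa, with 799 bases of exon, had 0.949, 1.30 and 1.02 CPM in TPS and 2.09, 2.56 and 1.82 CPM in EPS lines, and did not pass the test (edgeR adjusted p = 0.0770). Pgk1 (ENSMUSG00000062070.12, chrX:106187100-106203699, plus strand; promoter window shown above) had 1581, 1513 and 722 CPM in TPS lines and 2176, 1809 and 1239 CPM in EPS lines. EPS lines 1 and 2 were above all TPS lines and TPS line 3 was the lowest of the 6. Its log2 fold change was -0.45 (95% interval -1.21 to 0.30, edgeR adjusted p = 0.351). Pgk1 has 4 near-identical processed pseudogenes, 2 of them with identity of 100%, and these had 11.2% as many counts as Pgk1 in TPS lines and 10.8% in EPS lines, so that reads could be shared among them.

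Pkm (ENSMUSG00000032294.17, chr9:59656368-59679375, plus strand) was the gene with the narrowest spread. It had 3385, 3232 and 2893 CPM in TPS lines and 4099, 3733 and 3565 CPM in EPS lines. All 3 TPS lines were below all 3 EPS lines, as was the case for 19.1% of all tested genes, and no other gene of the 10 separated in this way. The fold change was 0.834 with a 95% interval of 0.672 to 1.04, so a fold change below 0.672 is outside the interval (log2 fold change -0.26, edgeR adjusted p = 0.1999). When the 12 libraries were treated as separate samples, Pkm passed the test (edgeR adjusted p = 0.0303), in a fit that called 23.3% of all tested genes lower in TPS lines. Ldha (ENSMUSG00000063229.15, chr7:46841475-46855627, plus strand; promoter window shown above) encodes the lactate dehydrogenase subunit that favours lactate production. Its levels were 1934, 2023 and 1067 CPM in TPS lines and 2297, 1998 and 1357 CPM in EPS lines, with TPS lines 1 and 2 within the range of the EPS lines. The log2 fold change of Ldha was -0.17 (95% interval -0.83 to 0.49, edgeR adjusted p = 0.707), and 0.067 without TPS line 3.

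The 10 genes together took 1.30%, 1.41% and 0.875% of all counts in TPS lines 1 to 3 and 1.45%, 1.63% and 1.03% in EPS lines 1 to 3. This share uses no normalization factor, so it is not corrected for differences in composition between lines. The groups overlapped, with means of 1.20% ± 0.283 (SD, n = 3) and 1.37% ± 0.309 (SD, n = 3) and an exact two-sided permutation p of 0.5, where 3 lines against 3 allow no p below 0.1. In both cell types the share was lowest in line 3.

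The spread between lines of the same cell type was a feature of most of these genes. Line 3 had the lowest level of its group for all 10 genes in TPS lines and for all 10 in EPS lines, whereas 11.9% of all tested genes were lowest in line 3 of both groups. This pattern was noticed after the values were seen. The deviation from the group mean, on the log2(CPM + 0.5) scale, had a median over the 10 genes of -0.52 in TPS line 3 and -0.47 in EPS line 3, and of 0.17 to 0.30 in the other 4 lines. Over all tested genes the same medians were between -0.0090 and 0.010. Within line 3, Pkm deviated least in both groups, Slc2a1 deviated most in TPS line 3 and Pfkp most in EPS line 3. Over the 45 pairs of genes, the correlation of these deviations across the 6 lines had a median r of 0.85 and a range of 0.37 to 0.997, as a description of genes that share the same libraries. The median standard error of the log2 fold change was 0.31 for the 10 genes and 0.155 for the 1613 tested genes within their range of mean level.

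**Figure D3:**
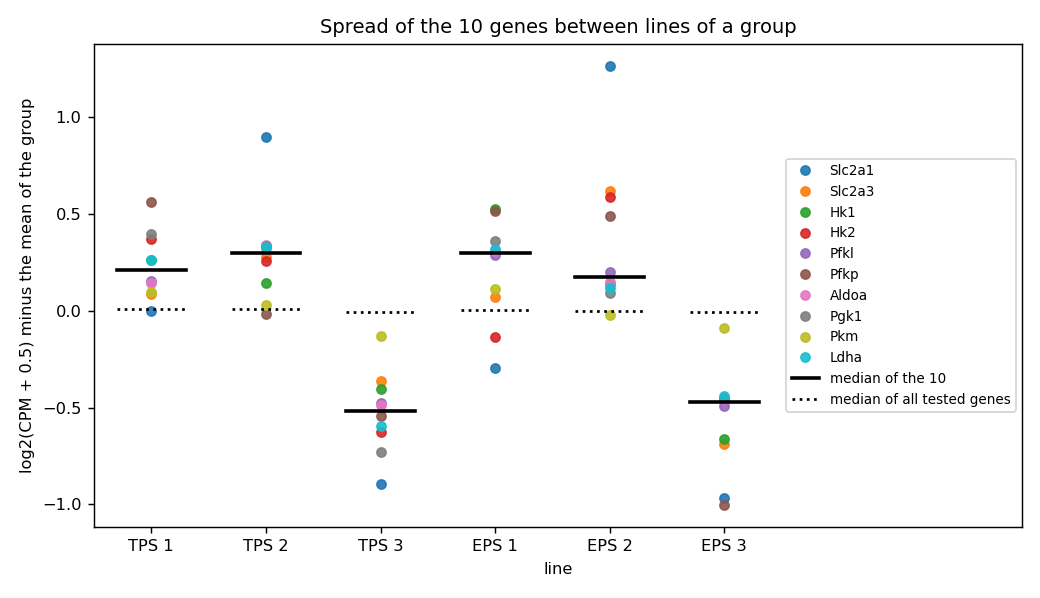
Deviation of each gene from the mean of its group, as log2(CPM + 0.5), in the 6 lines, with the median of the 10 genes (solid bar) and of all tested genes (dotted bar). In TPS line 3 and EPS line 3 all 10 points lie below 0, and the median of all tested genes stays near 0 in every line.

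Line 3 had the fewest counts of the TPS lines and the most of the EPS lines. The summed fibroblast markers were 6503, 3614 and 3815 CPM in TPS lines 1 to 3, so that TPS line 3 was in between, and 1438 CPM in EPS line 3, the highest of the EPS lines. The part of depth and of fibroblast RNA in the low levels of line 3 was not tested. The labels do not say what a number shared by a TPS and an EPS line marks. Without line 3 of both groups, an alternative added once the pattern had been seen, all 10 genes again had log2 fold changes below 0, from -0.91 for Pfkp to -0.12 for Ldha, and none passed the test by edgeR. How many of all tested genes this smaller fit called was not counted, so its lack of calls has no share beside it.

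Further genes of glycolysis were read from the same fit. Of 27 listed genes, 23 were tested, 2 were higher in TPS lines, 2 were lower and 19 did not pass, where 14.4% of all tested genes were higher and 7.34% lower, and the median of their log2 fold changes was 0.059. These shares were near or below those of all tested genes. Both genes that fell encode alternative isoforms of steps described above. Ldhb, the lactate dehydrogenase subunit that favours pyruvate, had 156, 147 and 132 CPM in TPS lines and 707, 585 and 430 CPM in EPS lines. The groups were far apart, and the log2 fold change was -1.98 (95% interval -2.44 to -1.52, edgeR adjusted p = 0.00190). Ldhb passed the test in all 16 alternative fits. Aldoc, aldolase C, had 28.3, 40.3 and 9.37 CPM in TPS lines and 117, 99.8 and 50.3 CPM in EPS lines, a log2 fold change of -1.77 (95% interval -2.98 to -0.56, edgeR adjusted p = 0.0469). Its call was lost without EPS line 1, EPS line 2, TPS line 1 or TPS line 3, with edgeR adjusted p up to 0.116.

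Hk3, a hexokinase best known from blood cells, rose from 2.61, 2.59 and 3.67 CPM in EPS lines to 26.8, 4.07 and 9.56 CPM in TPS lines. Its log2 fold change was 2.19 (edgeR adjusted p = 0.0451). The rise rested largely on TPS line 1, without which it was 1.20 (edgeR adjusted p = 0.1196), and the call was also lost without EPS line 1, 2 or 3 or TPS line 3, with edgeR adjusted p up to 0.123. Slc2a12, a minor transporter, was near the limit of detection, at 0.0979, 0.0294 and 0.0854 CPM in EPS lines and 0.450, 1.58 and 0.477 CPM in TPS lines. It passed the test (log2 fold change 3.51, edgeR adjusted p = 0.0171) but not without EPS line 2 (edgeR adjusted p = 0.0612), and its log2 fold change was 2.65 without TPS line 2. Among the abundant genes that did not pass were Gapdh, which catalyses the oxidation step, with 4388, 4544 and 3916 CPM in TPS and 5597, 5359 and 3718 CPM in EPS lines, and the enolase gene Eno1, with 3560, 4003 and 3005 CPM in TPS and 5130, 4647 and 4001 CPM in EPS lines. Their log2 fold changes were -0.19 and -0.38 (edgeR adjusted p = 0.489 and 0.136). Gpi1 (-0.42), Tpi1 (0.0043) and Pgam1 (0.059), the isomerases and the mutase of the pathway, did not pass either. Of the 23 tested genes, 11 were lowest in line 3 of both groups.

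Because isoforms of a step are measured in the same library, their ratio does not depend on normalization between lines. The ratios used counts per kilobase of exon with 0.5 counts added, and 6 pairs were compared by exact two-sided permutation tests, for which the smallest p was 0.1. The Ldhb to Ldha ratio was 0.171, 0.153 and 0.260 in TPS lines and 0.649, 0.617 and 0.669 in EPS lines. All TPS lines were below all EPS lines, the mean log2 ratio being -2.40 ± 0.403 (SD, n = 3) in TPS and -0.63 ± 0.0587 (SD, n = 3) in EPS lines (exact permutation p = 0.1, 0.3 after Benjamini-Hochberg adjustment over the 6 pairs). The Aldoc to Aldoa ratio also separated, at 0.0152, 0.0189 and 0.00780 in TPS lines and 0.0418, 0.0399 and 0.0306 in EPS lines (exact permutation p = 0.1, adjusted 0.3). Ldha and Aldoa thus remained the more abundant isoform in every line of both cell types.

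The other 4 pairs overlapped between groups. Slc2a3 was more abundant than Slc2a1 in all 6 lines, by 1.12 to 2.49 times in TPS and 1.43 to 2.89 times in EPS lines. Hk2 exceeded Hk1 by 3.02 to 3.81 times in TPS and 3.02 to 6.53 times in EPS lines. In both pairs the same isoform led in every line. Pfkp was at 0.272 to 0.457 of Pfkl in TPS and 0.281 to 0.489 in EPS lines. Pfkm, the muscle-type subunit, was at 0.317 to 0.665 of Pfkl in TPS and 0.237 to 0.365 in EPS lines. The exact permutation p-values of these 4 pairs were between 0.2 and 0.5 before adjustment and between 0.4 and 0.5 after it.

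**Figure D4:**
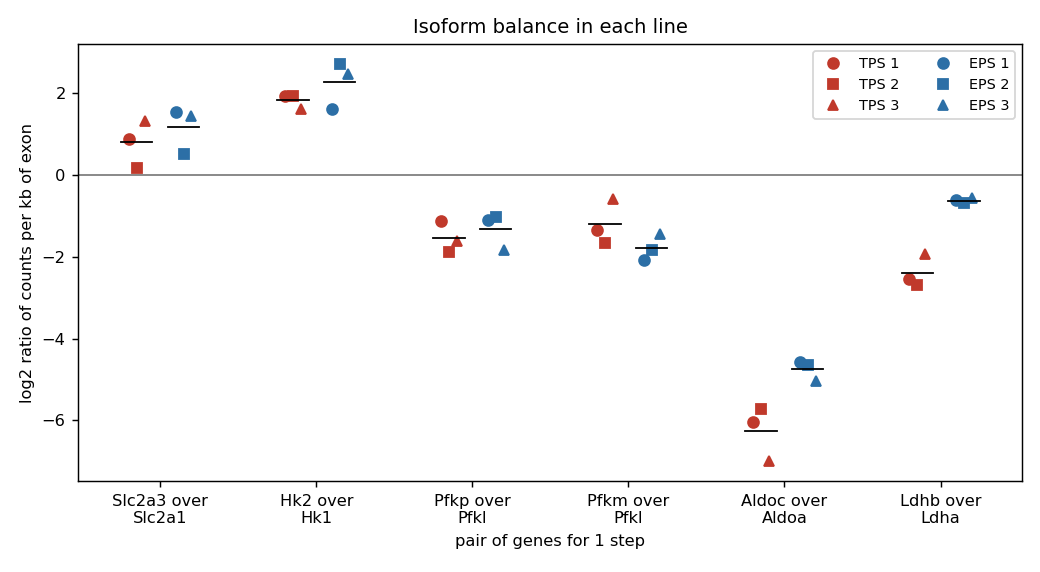
Log2 ratio of counts per kilobase of exon for 6 pairs of genes that act at the same step, in each TPS line (red) and EPS line (blue), with the group mean as a black bar. Ldhb over Ldha and Aldoc over Aldoa are lower in all 3 TPS lines than in all 3 EPS lines, and the other pairs overlap.

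Genes that control glycolysis did not move in one direction. Of 17 tested, 2 were higher and 3 lower in TPS lines, against 14.4% and 7.34% of all tested genes, and the median of the log2 fold changes was -0.11. The number lower was 1 with upper quartile factors and 0 without composition factors. Myc, the growth regulator that induces many glycolysis genes, rose from 7.28, 5.71 and 9.11 CPM in EPS to 15.6, 19.2 and 48.1 CPM in TPS lines (log2 fold change 1.91, edgeR adjusted p = 0.0220), and lost its call without EPS line 1 or 2 (edgeR adjusted p up to 0.0765). Without TPS line 3, the highest of the 6, the log2 fold change of Myc was 1.24 (edgeR adjusted p = 0.0416). Its relative Mycn fell from 175, 196 and 150 CPM in EPS to 80.3, 71.8 and 135 CPM in TPS lines (log2 fold change -0.86, edgeR adjusted p = 0.0442). Mlxipl, the glucose-responsive factor ChREBP, was higher by 2.18, and Pfkfb2, which makes the phosphofructokinase activator fructose 2,6-bisphosphate, and Tigar, which removes it, were lower by -0.99 and -0.76 on the log2 scale (edgeR adjusted p = 0.0236, 0.0454 and 0.0256). Each of these 4 calls was lost in 4 or 5 of the 6 fits without a line: Mycn without any but TPS line 3, Pfkfb2 without any but TPS line 1, Tigar without any but EPS line 2, and Mlxipl without EPS line 2 or 3 or TPS line 2 or 3, with edgeR adjusted p up to 0.129, 0.129, 0.0714 and 0.0643. The log2 fold change of Mlxipl was 2.89 without EPS line 1. Hif1a, the oxygen-regulated subunit of HIF1, had a log2 fold change of 0.35 and did not pass (edgeR adjusted p = 0.269).

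Genes for the fate of pyruvate and lactate include the pyruvate dehydrogenase complex, which feeds pyruvate to the mitochondrial citric acid cycle. Of 20 tested, 0 were higher and 3 lower in TPS lines by edgeR, against 14.4% and 7.34% of all tested genes, and the median of the log2 fold changes was -0.19. An unadjusted p under 0.05 was found for 6 of the 20 and for 37.0% of all tested genes. Pdha1 and Pdhb, the subunits of the first enzyme of the complex, had log2 fold changes of -0.70 and -0.57 (edgeR adjusted p = 0.0172 and 0.0274). The other listed genes of the complex, Dlat, Dld and Pdhx, did not pass, at -0.48, -0.23 and -0.16 on the log2 scale (edgeR adjusted p = 0.0686, 0.252 and 0.485). Pdha1 had 142, 132 and 114 CPM in TPS and 211, 181 and 237 CPM in EPS lines, and its call was lost without TPS line 3 (edgeR adjusted p = 0.0633), that of Pdhb without EPS line 1 or 3 or TPS line 1 or 2 (edgeR adjusted p up to 0.0880). Gpt2, the mitochondrial enzyme that interconverts pyruvate and alanine, fell most, from 133, 96.0 and 128 CPM in EPS to 43.5, 57.2 and 43.9 CPM in TPS lines (log2 fold change -1.30, edgeR adjusted p = 0.00444). The lactate exporter Slc16a3, which is MCT4, and the importer and exporter Slc16a1, which is MCT1, did not pass, at 0.56 and 0.056 on the log2 scale (edgeR adjusted p = 0.534 and 0.873).

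Pathways that leave glycolysis at its intermediates were read in the same way. In the serine synthesis list, which starts from 3-phosphoglycerate, 3 of 5 genes were lower and none was higher, against 7.34% and 14.4% of all tested genes, and the median of the log2 fold changes was -0.92. Psat1, its aminotransferase, fell from 865, 496 and 694 CPM in EPS to 259, 296 and 300.2 CPM in TPS lines (log2 fold change -1.27, edgeR adjusted p = 0.00731). Psph, the phosphatase, and Shmt2, which passes serine carbon to folate in mitochondria, had log2 fold changes of -1.23 and -0.92 (edgeR adjusted p = 0.0227 and 0.0130), and Psph lost its call without TPS line 1 or 3 (edgeR adjusted p up to 0.0715). In the pentose phosphate list, 1 of 8 genes was higher and 2 lower, against 14.4% and 7.34% of all tested genes, with a median of -0.34, and the number lower was 1 with upper quartile factors and 0 without composition factors. G6pdx, its entry enzyme, and Rpe were lower by -0.72 and -0.59 and H6pd, the enzyme of the endoplasmic reticulum, was higher by 0.85 on the log2 scale (edgeR adjusted p = 0.0343, 0.0437 and 0.0259). Each of these 3 calls was lost in 4 or 5 of the 6 fits without a line: G6pdx and Rpe without any but EPS line 1, and H6pd without EPS line 1 or 3 or TPS line 1 or 3, with edgeR adjusted p up to 0.0921, 0.117 and 0.0794.

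The counts of gluconeogenesis, glycogen and HIF target genes stand beside 14.4% higher and 7.34% lower among all tested genes. Of 4 tested gluconeogenesis genes, 1 was lower, Pck2, the mitochondrial enzyme that makes phosphoenolpyruvate (log2 fold change -1.54, edgeR adjusted p = 0.0192), and its call was lost without EPS line 1 or TPS line 1 or 3 (edgeR adjusted p up to 0.0573). With the line number as a block, 0 gluconeogenesis genes were lower and 1 was higher, and 1 was higher also with DESeq2's test or without the filter on low counts. Of 10 tested glycogen genes, 1 was higher, Gyg, the protein that primes glycogen, with 31.4, 26.4 and 20.4 CPM in TPS and 9.34, 10.8 and 10.4 CPM in EPS lines (log2 fold change 1.36, edgeR adjusted p = 0.00623). The number higher in this list was 2 with DESeq2 size factors, with upper quartile factors or without composition factors, and 3 with DESeq2's test or without the filter. Ugp2, which makes the UDP-glucose used for glycogen, was just outside the threshold (log2 fold change 0.82, edgeR adjusted p = 0.0501). Targets of HIF outside glycolysis gave 1 higher gene of 15, P4ha2, a collagen prolyl hydroxylase, with 107, 77.7 and 64.4 CPM in TPS and 19.6, 34.4 and 26.5 CPM in EPS lines (log2 fold change 1.63, edgeR adjusted p = 0.00698). The number higher in the HIF list was 3 without the filter, and 2 with the block or without EPS line 2, and with the block 1 was lower. Collagen genes are among the fibroblast markers that were higher in TPS lines, and their part in the P4ha2 result was not tested. The median log2 fold change of the HIF list was 0.44, on the other side of 0 from that of the 10 glycolysis genes. As with those, 10 of its 15 genes were lowest in line 3 of both groups, with median deviations of -0.57 in TPS line 3 and -0.49 in EPS line 3.

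**Figure D5:**
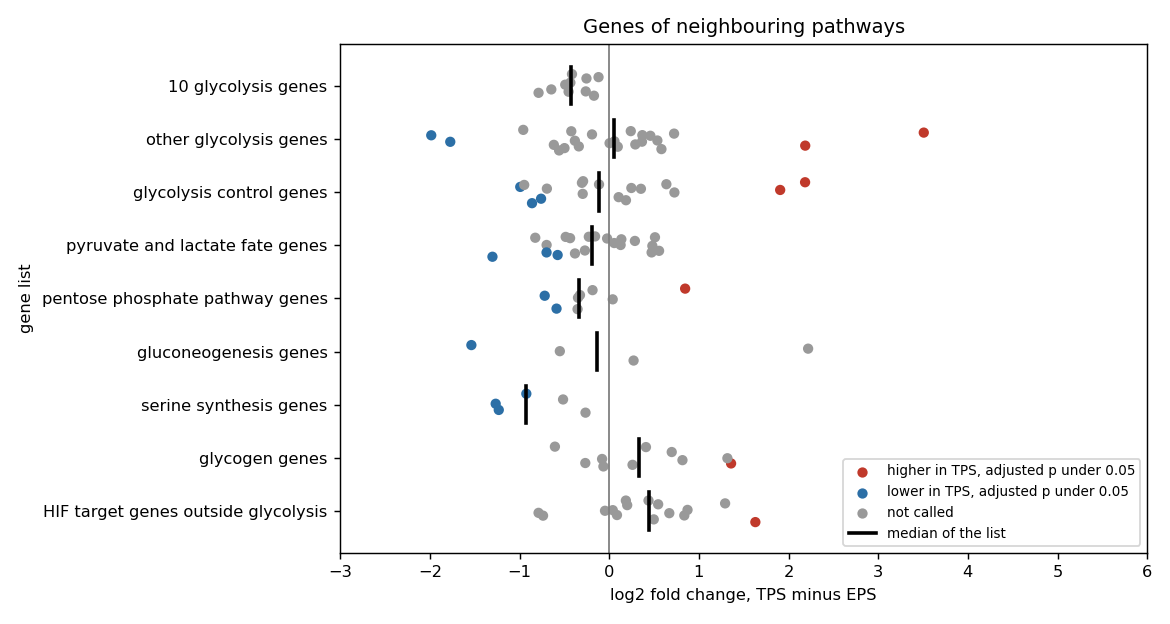
Log2 fold change (TPS minus EPS) of each tested gene in the 10 glycolysis genes and 8 neighbouring lists, coloured where edgeR's adjusted p was under 0.05, with the median of each list as a black bar. None of the 10 glycolysis genes is coloured and their median is -0.42, while Ldhb and Aldoc stand at the left of the other glycolysis genes and 3 of 5 serine synthesis genes are coloured as lower.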

How the data were processed

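RNA enriched with oligo(dT) beads was sequenced as paired-end reads from 12 libraries, 2 technical replicates of each of 6 lines. The authors trimmed reads with fastp 0.19.7 and mapped them with STAR 2.7.3a, versions as in the submitters' processing notes, to mm10 (GRCm38), and deposited counts of reads per gene without normalization. The counting tool, the annotation release and the use of strand are not given in the sources used here. Symbols and coordinates were taken from GENCODE M21, with which 55141 of 55401 identifiers matched after the version was removed.

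The 2 libraries of a line were summed, since the series' design calls them technical replicates, and the line was the replicate. TPS and EPS lines were compared by edgeR 4.0.16 (quasi-likelihood test, TMM factors, filterByExpr, R 4.3.3) with Benjamini-Hochberg adjustment over 17468 tested genes and a threshold of 0.05. CPM are counts scaled to the line's total times its TMM factor. The 95% intervals used edgeR's standard error and degrees of freedom. The genes and lists were chosen with earlier results of these data known. All tested glycolysis genes could be named, and of each other list the called genes with the largest change, up to 3 in a direction. Hif1a, Slc16a3, Slc16a1, Dlat, Dld, Pdhx and Ugp2 did not pass and, like the marker Fap, were named after their values were seen. Near-identical copies were found with blastn 2.17.0 (at least 95% identity over 50% of the copy). The test was checked on simulated counts. Library totals were 13676051 to 21821707 counts. P-values measure the spread between these lines, and whether the lines were derived separately is not given in the sources used here. The alternatives were DESeq2 1.42.0, other factors, filters and thresholds, each of the 12 libraries as a sample, 1 technical replicate of each line, near-identical copies added, a block for the line number, and leaving out each line. Leaving out line 3 of both groups, and the other settings for the count of genes lowest in line 3, were added after seeing the data. TPM values and other data of the study were not used here.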

Additional observations from a re-analysis of the deposited data

How the results depend on the processing

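No alternative called any of the 10 genes higher in TPS lines. None was called lower except Pkm with the 12 libraries as separate samples (1 of 10) and Pfkp without EPS line 3 (0 to 1 of 10 over the fits that leave out a line). Of 180 values of the 10 genes under the alternatives, 174 were negative. The 6 positive ones were Slc2a1 without composition factors (0.031), with the line number as a replicate block (0.016) and without EPS line 2 (0.77) or TPS line 3 (0.21; range -0.68 to 0.77 over the fits without a line), Hk1 without EPS line 1 (0.0097, range -0.53 to 0.0097) and Ldha without TPS line 3 (0.067, range -0.37 to 0.067). The cause was not tested.

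The count of genes lowest in line 3 of both groups was 9 or 10 under the other factors and with either technical replicate alone. The share of counts and the 6 isoform ratios kept their sign under every alternative run, but some came close to 0. The difference in share was -0.17 percentage points, and -0.35 to -0.013 over the fits without a line. The difference in log2 ratio ranged over these fits from -0.70 to -0.068 for Slc2a3 over Slc2a1 and from -0.47 to -0.048 for Pfkp over Pfkl, against -1.99 to -1.61 for Ldhb over Ldha. Over all genes, 2509 were higher and 1282 lower. The counts were 4067 and 3610 with 12 separate libraries and 873 and 258 at an adjusted p of 0.01. Without composition factors they were 2987 and 745, so that 80.0% of calls were higher in place of 66.2%. Over the fits without a line they were 1617 to 2234 and 493 to 1047. Of the other glycolysis genes, those higher were 1 with a mean of at least 50 counts, 0 and 1 with technical replicate 1 or 2 alone, 0 with the block, 0 at an adjusted p of 0.01 and 0 to 2 without a line. Those lower were 1 without composition factors, 1 with a mean of at least 50 counts, 5 with 12 libraries, 1 with technical replicate 1 alone, 1 at an adjusted p of 0.01 and 1 to 4 without a line. Some of these alternatives use fewer samples or stricter limits, and the cause of the shifts was not tested.

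The line numbers shared by TPS and EPS lines were not found to pair the lines, as deviations of same-numbered lines correlated by 0.024, -0.12 and 0.042, and no TPS line correlated best with its own number. With the line number as a replicate block, the calls were 1714 higher and 721 lower, among them 0 of the 10 glycolysis genes.

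The depth was high for these genes. Hk1, with the fewest counts of the 10 genes, had 13130 in TPS and 13681 in EPS lines. With 3 lines in each group the 95% interval of most of these genes allows a change of 2-fold downward. Feeder RNA was not measured apart, and protein or metabolite levels were not analysed here.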

Other observations

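The 2 technical replicates of a line were not alike for these genes in every line. In EPS line 3 all 10 genes were higher in the second library than in the first, by a median of 0.56 and up to 1.20 on the log2(CPM + 0.5) scale, while 50.1% of all tested genes were higher in the second library. Slc2a1 was at 168 CPM in the first and 388 CPM in the second library of EPS line 3, and Ldha at 1045 and 1608 CPM. All 10 were also higher in the second library of EPS line 1 (median 0.23) and of TPS line 2 (median 0.20), against 48.7% and 48.6% of all tested genes. In the other 3 lines between 2 and 7 of the 10 genes were higher in the second library, with medians of -0.057 to 0.031.

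The HIF targets outside glycolysis differed between libraries in the same lines, with 14 of 15 higher in the second library of EPS line 3 (median 0.42), of EPS line 1 (median 0.60) and of TPS line 2 (median 0.32). In all 6 lines the differences between the libraries exceeded counting error, the chi-square divided by its degrees of freedom being 22.3 in EPS line 3, 9.61 in EPS line 1 and 2.58 to 3.83 in the other lines. With both libraries of line 3 compared against all 4 libraries of the other lines of its group, 7 of the 10 genes were still lowest in line 3 of both cell types. The share of all tested genes that met this stricter criterion was not counted, so the 7 have no background beside them.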
